A study of Bos taurus with 47 samples.

Results

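Of 27607 gene identifiers counted in bovine Longissimus muscle, 90 made up a large share of reads in the muscle of grown heifers and a small share in both newborn and fetal muscle. They were selected on these same read shares. An identifier became a member when its mean at slaughter was at least 5 CPM (counts per 1000000 counts of the library) and more than 4 times the means at birth and in the fetus. Of the 8326 identifiers with a slaughter mean of at least 5 CPM, 91 met the ratio, 1 of them was left out by the rule, and the upper limit of 100 members was not reached. Levels between stages are therefore given as a description with no test. Because no symbol could be attached to any identifier, the members are given by Ensembl identifier, their functions are not described, and the identity of the tissue could not be checked against marker genes.

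Crossbred Angus heifers (F0) gained 0.28 kg/day (low gain, LG) or 0.79 kg/day (moderate gain, MG) over the first 84 days of gestation, and were then managed together, as were all their daughters. Muscle RNA came from the F1 heifers at birth (8 LG and 8 MG libraries), from F1 heifers at slaughter (8 LG and 7 MG by the sample labels, although the protocol text gives 7 and 8), and from F2 fetuses at day 84 (8 LG and 8 MG), whose group is that of the F0 animal. The F1 samples were Longissimus thoracis and the fetal samples Longissimus dorsi. The age at slaughter is not given in the labels. Every library carried only its stage and maternal gain as a treatment, and no label ties a library to a separate animal, so a p-value here reflects only how the libraries of a group differ, which may be technical.

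As background, the Longissimus is the long muscle of the back. Fibres of cattle muscle are laid down before birth, and growth afterwards comes mainly from the enlargement of existing fibres. During that time the developmental forms of contractile, calcium-handling and metabolic proteins give way to adult forms, and fat and connective tissue accumulate between the fibres.

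Total counts per library were 13308433 to 32547565. Stage coincided with the deposited table, and the fetal stage also with the generation and the dissected part of the muscle, so these cannot be told apart. In bulk tissue, fewer cells of a type and less RNA per cell cannot be told apart either. One slaughter library, LG 14, stood apart. It held 124 identifiers at 5 CPM or more that were over 10 times their level in every other slaughter library, of which 14 were members. Birth MG 17 held 20 such identifiers against the other birth libraries, and the other 45 libraries held 0 to 2.

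The members together took 0.0599% to 0.403% of all counts in the fetal libraries (median 0.0933%), 0.428% to 2.37% at birth (median 1.11%) and 4.55% to 7.37% at slaughter (median 5.90%). The 3 ranges did not overlap. A single identifier, ENSBTAG00000018204, made up much of the share at slaughter. Without it the members took 2.07% to 2.66% of counts in the LG libraries and 1.82% to 2.59% in the MG libraries at slaughter. The members' slaughter means ran from 5.07 to 36164 CPM with a median of 26.2 CPM. There were 5 members at 1000 CPM or more, 20 at 100 CPM or more and 21 under 10 CPM. These values are shares of reads, not corrected for transcript length, so they do not rank the members by abundance of transcripts.

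The 90 members fell into 2 kinds. In 15 of them the level in slaughter LG 14 was over 4 times that in the next slaughter library, and no other slaughter library stood so far above the rest for any member. These 15 are called single-library members below, and the other 75 did not rest on LG 14 in this way. The split was made after the values were seen.

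**Figure D1:**
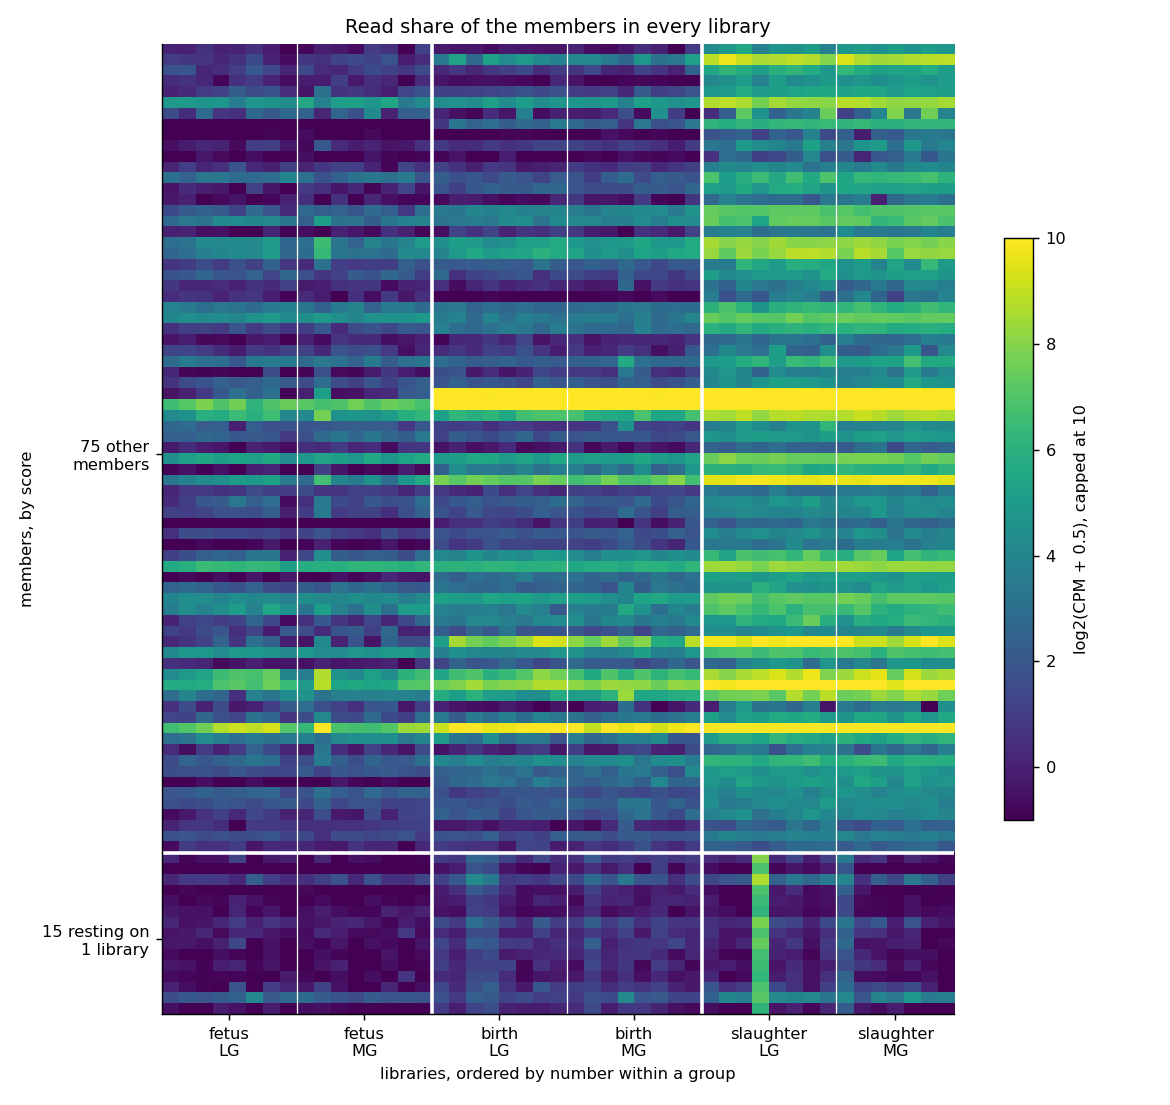
Each row is 1 of the 90 members in order of the rule's score and each column 1 of the 47 libraries, by stage and maternal gain; colour is log2(CPM + 0.5), capped at 10. Most of the 75 other members are brighter across the slaughter columns than elsewhere, with exceptions such as ENSBTAG00000039035, which is bright in 4 of them; the 15 members resting on 1 library are brightest in the column of slaughter LG 14.

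Among the 75 other members, 57 had every slaughter library above every birth and fetal library. Over all 8326 identifiers with a slaughter mean of at least 5 CPM this held for 2.68%, a share from which nothing is read here because the rule chose members on that contrast. Medians in place of means left 70 of the 75 over 4 times both other stages. Slaughter exceeded birth in all 6 pairs of libraries that carry 1 number at both stages for 73 of the 75, and exceeded the fetus in all 15 such pairs for 71. The rule chose members on these same values, so nothing is read from these counts either. No label states that libraries of 1 number are paired. Scaled by TMM, the median log2 fold change of the 75 was 2.98 for slaughter against birth and 4.73 for slaughter against the fetus, where the medians over all identifiers tested were 0.05 and -0.16.

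The highest score of the rule belonged to ENSBTAG00000002023. Its level was 0 to 1.77 CPM in the fetal libraries (median 0.513), 0 to 1.38 CPM at birth (median 0.304) and 13.3 to 43.2 CPM at slaughter (median 26.3). The lowest slaughter library was 7.52 times the highest fetal or birth library. It was counted in 15 of the 16 birth libraries and 14 of the 16 fetal ones, so it was near the detection limit before grown muscle. ENSBTAG00000039340, the next by score, already had 6.05 to 40.3 CPM at birth (median 17.1), against 0.138 to 3.13 CPM in the fetus (median 1.13). At slaughter it had 246 to 834 CPM with a median of 431 CPM.

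The most counted members differed in how far they had come by birth. ENSBTAG00000018204 had 0.0461 to 36.8 CPM in the fetal libraries, with a median of 1.02 CPM. At birth it ranged from 976 to 17272 CPM (median 6035), and at slaughter from 22339 to 48312 CPM (median 35989), with no overlap between stages. The birth values of LG 28 (17272 CPM) and MG 21 (976 CPM) were the extremes. ENSBTAG00000005333 was far more even. Its levels were 71.2 to 224 CPM in the fetus, 1163 to 2906 CPM at birth and 8547 to 11160 CPM at slaughter. The SD of its log2 level over the 15 slaughter libraries was 0.12, the narrowest of all 90 members.

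Before grown muscle, the members did not share 1 order of stages by mean CPM. The rule left this point free because it used only the larger of the 2 other means. The birth mean was above the fetal mean for 64 of the 90 and below it for 26. For 53 members the 2 means lay within 2 times of each other, for 34 birth was over 2 times the fetus, and for 3 the fetus was over 2 times birth, with 0.5 CPM added to both. Scaled by TMM, 77 of the 83 members that passed the count filter were higher at birth, so the split of 64 and 26 depended on scaling and filter. Among the 75 other members the median log2 fold change for birth against the fetus was 1.47 over the 72 that passed the count filter, where all identifiers tested had a median of -0.12. As the filter removes members with few counts at both stages, that median does not cover every member.

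With 0.5 CPM added to both means, birth exceeded the fetus more than 4 times for 13 of the 75 other members. ENSBTAG00000010284 was among these 13. It had no count in any of the 16 fetal libraries, whose floor of 3 counts over the stage corresponds to 0.0104 CPM. At birth it had 1.14 to 11.3 CPM, and the birth mean of 5.75 CPM was at least 554-fold higher than that floor. At slaughter it had 55.8 to 87.9 CPM (median 73.2), with an SD of 0.18 on the log2 scale. ENSBTAG00000002749 ran the other way. Its fetal libraries had 0 to 1.34 CPM (median 0.778), its birth libraries 0 to 0.119 CPM with only 6 counts over the stage, and its slaughter libraries 1.75 to 16.0 CPM (median 8.22).

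**Figure D2:**
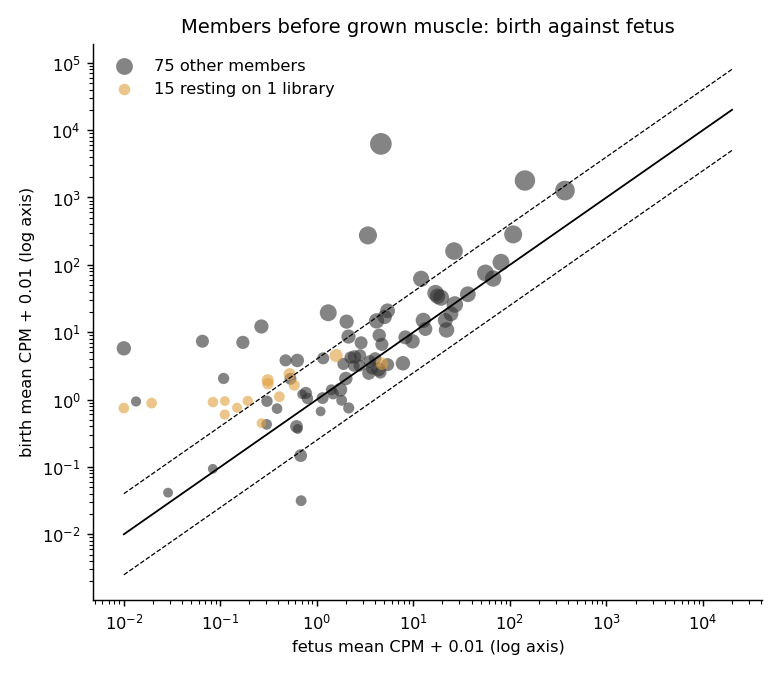
Each point is 1 member, with its fetal mean on the horizontal and its birth mean on the vertical axis, both in CPM + 0.01 on log axes; point area grows with the slaughter mean, the solid line marks equal means and the dashed lines a 4-fold difference. Points lie on both sides of equality, 64 above and 26 below, and the largest point, ENSBTAG00000018204, is far above the line.

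The members also differed in spread between slaughter libraries. The SD of log2(CPM + 0.5) over the 15 slaughter libraries had a median of 0.394 for the 75 other members and of 0.302 over the 12761 identifiers passing the count filter. The SD was under 0.3 for 20 of the 75 and over 1 for 5. ENSBTAG00000039035 had the widest spread. Its slaughter libraries held 0.859 to 241 CPM with a median of 14.03 CPM, and LG 11, MG 32, LG 41 and MG 45 stood at 152, 241, 178 and 196 CPM. The remaining 11 slaughter libraries reached at most 23.8 CPM. These 4 libraries came from both maternal groups. The birth libraries of this identifier showed a like gap, with 23.4 CPM in MG 21, 12.9 CPM in LG 22 and a stage median of 0.444 CPM. ENSBTAG00000052397 was the other extreme in kind. It ranged from 0 to 31.97 CPM at slaughter around a median of 9.82 CPM, and LG 02, LG 41 and MG 45 were the low libraries, at 0.458, 0.275 and 0 CPM. The cause of such gaps was not tested.

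Some of the 75 other members varied together from library to library. Spearman's rho was taken between every pair over the 14 slaughter libraries other than LG 14, and members were joined at an average rho of at least 0.5. The median rho over all pairs of the 75 was 0.0549, close to the 0.0681 over all pairs of filtered identifiers, so the members as a whole did not move together within the stage. Within that, 4 sets of at least 5 members emerged. The sets were built from the slaughter values, so only birth and fetal libraries give values the grouping did not use, and all identifiers of a library share its depth and composition.

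The first set had 15 members, ENSBTAG00000018204 and ENSBTAG00000011392 among them. Its median rho was 0.679 at slaughter, 0.285 over the 16 birth libraries and 0.591 over the 16 fetal libraries, where the filtered identifiers had 0.129 and 0.0412. One fetal library, MG 20, lay highest. Its mean log2 deviation from the stage mean was 1.97, with the next library at 0.91, and 13 of the 15 members had their highest fetal value there. ENSBTAG00000011392, for example, had 80.8 to 2046 CPM in the fetus with a median of 165 CPM. The same fetal library was highest for 27 of the 75 other members, and it gave the 0.403% that was the highest fetal share of the members. Slaughter MG 32 was the lowest slaughter library for this set, at a deviation of -0.77.

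The second set had 7 members, including ENSBTAG00000010645 and ENSBTAG00000020649. Its median rho was 0.741 at slaughter, 0.259 at birth and 0.1 in the fetus. Here birth MG 17, the birth library noted above for its high identifiers, was highest, at a deviation of 2.13 with the next at 0.33. All 7 members were above their own birth mean there. At slaughter LG 41 was highest, at 1.03. ENSBTAG00000010645 had 53.1 CPM in birth MG 17 against medians of 4.51 CPM in birth LG and 6.10 CPM in birth MG libraries. The third set, of 6 members with ENSBTAG00000039340 among them, had median rho values of 0.657, 0.529 and 0.194 at slaughter, birth and in the fetus. The fourth, of 5 members, had 0.598, -0.01 and 0.1, so its shared variation at slaughter had no counterpart of like size at birth.

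**Figure D3:**
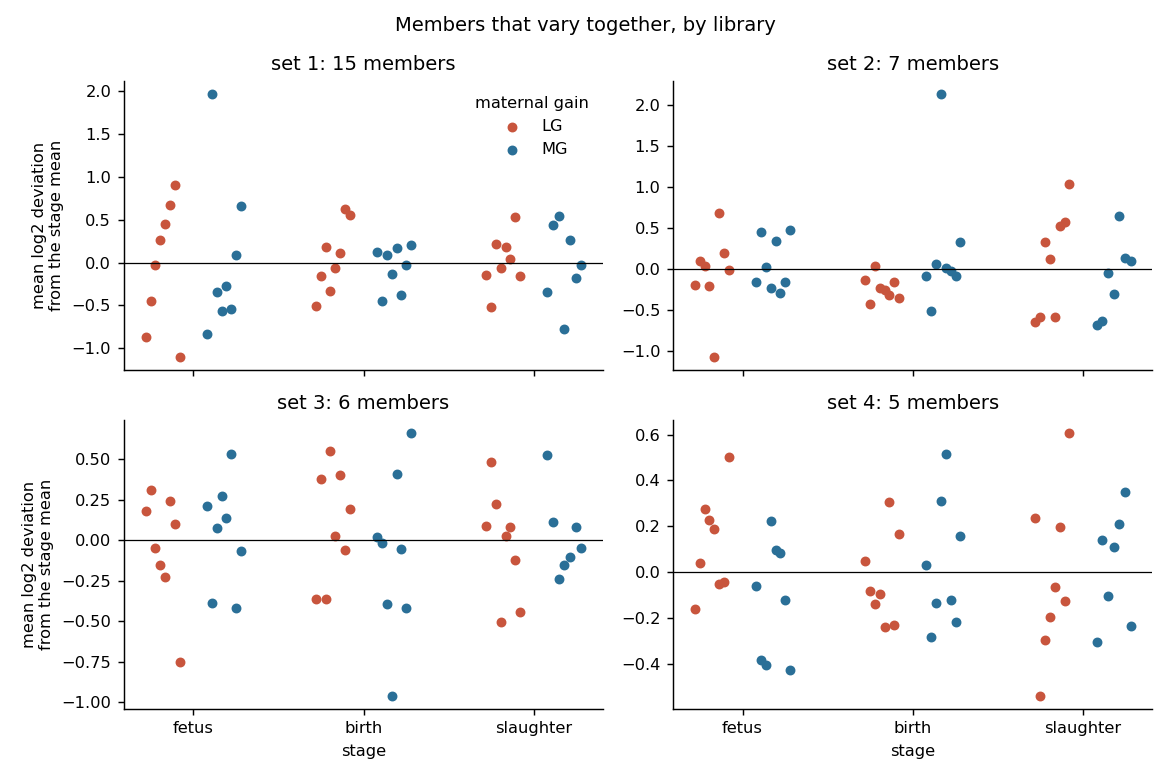
Each point is 1 library; the vertical axis is the mean, over the members of a set, of the log2 deviation from the stage mean, and colours mark maternal gain. Fetus MG 20 in set 1 (1.97) and birth MG 17 in set 2 (2.13) stand above the other libraries of their stage, and LG and MG points overlap at every stage.

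Members also lay near each other in the deposited tables. Another member stood within 10 rows of the fetal table for 18 of the 90 members (20%), whereas a member stood within 10 rows for 6.64% of the 12678 other identifiers passing the filter. Whether the row order follows the genome is not stated in the sources used here. Over the 9 such pairs among the other members the median rho at slaughter was 0.851, against 0.116 over 65614 neighbouring pairs of all filtered identifiers. Some of the 9 share a member, and some lie within the sets above, which were built on slaughter rho. Their median rho was 0.438 at birth and 0.440 in the fetus. The pair with the highest slaughter value, ENSBTAG00000010645 and ENSBTAG00000038128, had rho of 0.916 at slaughter, 0.571 at birth and 0.376 in the fetus. Whether the identifiers of a pair overlap or are near-identical copies was not tested, since coordinates and sequences were not used here.

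The single-library members formed a different pattern. In slaughter LG 14 they stood at 71.6 to 404 CPM, which was 5.21 to 42.6 times the next slaughter library (median 25.5 times). Slaughter MG 20 was next for 14 of the 15. ENSBTAG00000017280 had 404 CPM in LG 14, and 0.975 to 15.3 CPM in the other 14 slaughter libraries (median 4.52). ENSBTAG00000016151 had 242 CPM there and 0.0614 to 10.8 CPM elsewhere at slaughter (median 0.706), against 0.692 to 5.59 CPM at birth (median 1.46). Without LG 14, none of the 15 met the rule, and the slaughter mean of 12 of them fell below the birth mean. ENSBTAG00000006864 was the least dependent of them, with 142 CPM in LG 14 and 13.3 ± 5.94 CPM (SD, n = 14) in the other slaughter libraries.

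Summed over the 15, slaughter LG 14 held 2156 CPM, which is 0.216% of its counts. The next slaughter library, MG 20, held 96.9 CPM, the median of the slaughter libraries other than LG 14 was 23.4 CPM and the lowest was 13.1 CPM. Birth libraries held 8.80 to 63.4 CPM (median 14.9) and fetal libraries 4.22 to 22.9 CPM (median 7.97). The birth and fetal libraries that also carry the number LG 14 were unremarkable, at 15.2 CPM (place 8 of 16) and 7.65 CPM (place 9 of 16). The 15 also moved together where LG 14 was not involved. Their median pairwise rho was 0.596 over the other 14 slaughter libraries and 0.574 over the birth libraries, where birth LG 10 was highest for 8 of them, but 0.131 in the fetus. Most of these members had few counts in most libraries.

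**Figure D4:**
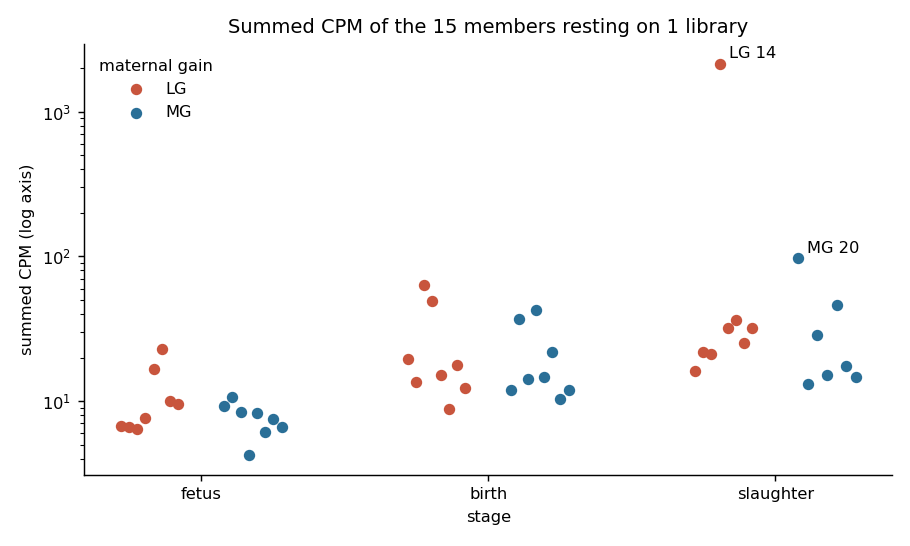
Points give the summed CPM of the 15 members resting on 1 library in each of the 47 libraries, by stage and maternal gain, on a log axis. Slaughter LG 14 (2156 CPM) and, less so, slaughter MG 20 (96.9 CPM) stand above the rest, which overlap between birth and slaughter.

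Without LG 14 the rule gave 76 members, of which 74 were among the 90. Besides these 15, ENSBTAG00000011734 was lost. Its slaughter libraries ran from 347 to 3511 CPM (median 892), with LG 14 highest, and its birth libraries from 35.0 to 675 CPM (median 241), so its stages overlapped. At the edges of the rule, ENSBTAG00000015909 was just inside at a ratio of 4.06 (68.6 CPM at slaughter and 16.9 CPM at birth), and ENSBTAG00000015840 was just outside (6.70 CPM at slaughter and 1.67 CPM at birth). By level, ENSBTAG00000021531 was just inside with a slaughter mean of 5.07 CPM, and ENSBTAG00000055240 was just outside with 4.998 CPM.

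The rule did not use the maternal groups, so LG against MG is the comparison that could be tested. It asks whether muscle of the daughters and of their fetuses differed by how fast the F0 heifers had gained weight while pregnant. Single-library members are an exception. None of them met the rule without LG 14, an LG library, so their higher level in LG at slaughter was set by the selection. Nothing is read from their tests at slaughter or in the interaction. edgeR's quasi-likelihood test with Benjamini-Hochberg adjustment over all identifiers called none of the members in any stage. At slaughter 0 of the 82 members tested had an adjusted p under 0.05, as did 0.00% of the 12577 identifiers tested (0 of them), and 8 members had an unadjusted p under 0.05, where 1.83% of all tested did. All 8 were higher in LG, a direction in which 1.13% of all tested had such a p, and 6 of them were single-library members. Without LG 14, 2 of 81 members had an unadjusted p under 0.05, as did 232 of 12480 identifiers. With all libraries, DESeq2 and limma voom without weights also called 0 members. At an unadjusted p under 0.05 were 3 and 1 members, and 253 and 196 of the 12577 identifiers.

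ENSBTAG00000011734 had the smallest p of the members at slaughter. LG libraries held 667 to 3511 CPM (median 1213) and MG libraries 347 to 1593 CPM (median 648), with overlap between the groups. The log2 fold change was 1.00 (SE 0.37) with an adjusted p of 1.00 from edgeR's quasi-likelihood test, and 0.72 (SE 0.33) without LG 14. ENSBTAG00000017280 had a log2 fold change of 3.32 (SE 1.26), which was 0.11 (SE 0.54) without LG 14. Its LG libraries other than LG 14 overlapped the MG libraries. Among members lower in LG, ENSBTAG00000003719 had the smallest p. It stood at 13.6 to 17.9 CPM in LG (median 15.3) and 13.9 to 28.3 CPM in MG (median 16.1), a log2 fold change of -0.21 (SE 0.12).

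For the 75 other members, 44 had a higher and 31 a lower fitted level in LG at slaughter, with a median log2 fold change of 0.02. Intervals of 95% from limma voom lay within 2-fold in both directions for 63 of the 75 (84%), and within 1.5-fold for 43. Larger differences between LG and MG were thus outside the intervals of those members, while smaller ones were not resolved. The most counted member, ENSBTAG00000018204, had 34862 ± 9141 CPM (SD, n = 8) in LG and 37651 ± 6828 CPM (SD, n = 7) in MG libraries. ENSBTAG00000005333 had 10143 ± 925 and 9931 ± 749 CPM in the same groups. In both, the groups differed by less than the spread between libraries.

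**Figure D5:**
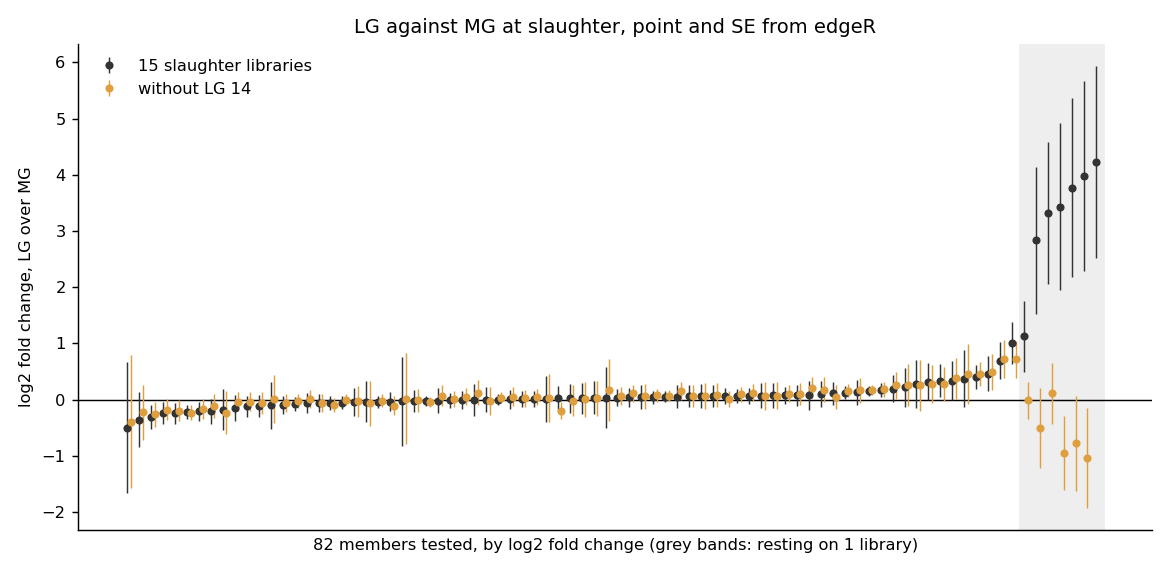
Points and bars are the edgeR log2 fold change of LG over MG at slaughter and its SE for the 82 members tested, in order of the value with all 15 slaughter libraries (black), beside the value without LG 14 (orange); grey bands mark members resting on 1 library. The 7 members in grey have values of 1.13 to 4.23 with all libraries, a direction set by their selection through LG 14. The 6 of them that remain tested without LG 14 have -1.04 to 0.11.

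At birth 0 of the 77 members tested were called, as were 0.00% of 12485 identifiers. An unadjusted p under 0.05 was found for 4 members, all lower in LG, and for 4.12% of all tested, 2.86% in that direction. DESeq2 and limma voom without weights called 0 members. Each had 2 members at an unadjusted p under 0.05, and 547 and 465 of the 12485 identifiers. The members with the smallest p, ENSBTAG00000020649 and ENSBTAG00000010645, belong to the set that was high in birth MG 17. ENSBTAG00000020649 had 0.951 to 1.69 CPM in LG (median 1.41) and 1.11 to 24.7 CPM in MG (median 1.61), of which MG 17 was the highest. Its log2 fold change was -1.54 (SE 0.57, adjusted p 0.985 with edgeR), and -0.29 (SE 0.22) without MG 17. For ENSBTAG00000010645 the values were -1.12 (SE 0.42, adjusted p 0.985 with edgeR) and -0.32 (SE 0.16). Without MG 17, 1 of 78 members had an unadjusted p under 0.05, as did 378 of 12474 identifiers.

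In the F2 fetus 61 members passed the count filter, and 0 were called, as were 0.00% of 14200 identifiers. An unadjusted p under 0.05 was found for 2 members, both lower in LG, and for 0.718% of all tested, 0.331% in that direction. DESeq2 and limma voom without weights called 0 members. At an unadjusted p under 0.05 were 3 and 2 members, and 215 and 118 of the 14200 identifiers. ENSBTAG00000013598 had 1.29 to 5.79 CPM in LG (median 4.06) and 2.72 to 10.3 CPM in MG (median 6.21), a log2 fold change of -0.71 (SE 0.29, adjusted p 1.00 with edgeR). The median over the 59 other members tested was -0.15, but it was 0.14 without fetus MG 20, and 0.02 and 0.14 in all fetal libraries with limma voom without and with sample weights, so its sign changed with that library and with the method. The fetal intervals were wide, since 21 of the 59 lay within 2-fold.

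Whether the LG effect differed between slaughter and birth was tested as an interaction in 1 edgeR model over the 47 libraries. It called 0 of the 90 members and 0.00% of the 15264 identifiers tested, and 17 members had an unadjusted p under 0.05, where 3.07% of all tested did. Of these 17, 16 had a higher signed LG-minus-MG difference at slaughter than at birth, a direction in which 2.57% of all tested had such a p. A higher signed difference need not be a larger one. Of the 17, 13 were single-library members, whose higher difference at slaughter was set by their selection through LG 14. The share in that direction is therefore not compared with the share over all tested. Without slaughter LG 14 the count was 6 of 90 members, and 367 of the 15239 identifiers tested. DESeq2 and limma voom without weights also called 0 members, and 2 and 0 of the 15264 identifiers. At an unadjusted p under 0.05 were 6 and 2 members, and 472 and 165 of all identifiers. ENSBTAG00000020649 had the smallest p, with a difference of 2.21 on the log2 scale (SE 0.64, adjusted p 0.854 with edgeR's quasi-likelihood test), which was 0.96 (SE 0.47) without birth MG 17. In the tests within each stage, its log2 fold change was -1.54 at birth and 0.69 at slaughter.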

How the data were processed

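Muscle RNA of 47 samples was made into polyA-selected libraries with a non-directional kit, per the labels' protocols, so reads from overlapping genes on the 2 strands were not separated. The authors deposited 3 tables of raw counts, 1 for each stage. The submitters' processing notes name STAR 2.7.3a, FastQC 0.11.8, edgeR 3.24.3 and MultiQC 1.9, with no role or order. Neither a genome build nor an annotation or counter is given in the sources used here. In the slaughter table the identifiers have no column name, and the names were read as heading the value columns in turn.

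CPM is a count per 1000000 counts of the library, over all identifiers. The members and lists were chosen with earlier results of these data known. Identifiers passing filterByExpr were scaled by TMM and tested with the robust quasi-likelihood test of edgeR 4.0.16 in R 4.3.3, with Benjamini-Hochberg adjustment at 0.05 over all identifiers. The same comparisons were rerun with limma 3.58.1 voom, with and without sample weights, with DESeq2 1.42.0, and with other size factors and filters, 1 model over all libraries, and libraries left out. Leaving out birth MG 17, fetus MG 20, and slaughter LG 14 from the interaction and the spread, and the library number as a random block in the interaction, were choices made after seeing the data. Symbols were matched for 0 identifiers, so the gene lists and markers were not used. Named identifiers are at most 2 per direction and pattern, by score, count, spread, birth-to-fetus ratio or p, in place of the symbol-based rule, plus the members nearest the rule's thresholds. Scripts were tested on simulated data. The SD is between libraries. Counting floors use 3 counts and cover counting error only.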

Additional observations from a re-analysis of the deposited data

Results flagged for a closer look

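Among 78 groups of library values of the named members, and of the summed single-library members, 18 had a library far from the rest of its group by Dixon's ratio at its 95% critical value. Chance flags about 1 in 20 groups only where values are normally distributed and the groups were not chosen by them. Some members were named here for their spread or for LG 14, and groups that share a library are not independent. The 18 are therefore not compared with chance. Slaughter LG 14 accounted for 5, with 404 CPM for ENSBTAG00000017280, 242 CPM for ENSBTAG00000016151, 142 CPM for ENSBTAG00000006864, 118 CPM for ENSBTAG00000009212 and the summed 2156 CPM. These 5 flags were fixed in advance, because single-library members are defined by LG 14 standing over 4 times above the next slaughter library. Slaughter MG 20 accounted for 4, with 10.8 CPM for ENSBTAG00000016151, 6.96 CPM for ENSBTAG00000009212, 657 CPM for ENSBTAG00000039340 and the summed 96.9 CPM. The first 2 of these and the sum concern the same members that are high in LG 14.

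Birth MG 17 stood apart for ENSBTAG00000020649 (24.7 CPM) and ENSBTAG00000010645 (53.1 CPM), which vary together. For the latter, birth LG 05 (7.43 CPM) and slaughter MG 39 (108 CPM) also stood apart. ENSBTAG00000020649 was far above its group in slaughter LG 41 (72.3 CPM) and slaughter MG 39 (25.2 CPM). ENSBTAG00000052397 stood at 31.97 CPM in slaughter LG 11. ENSBTAG00000006864 stood at 17.04 CPM in fetus LG 29 and 6.98 CPM in fetus MG 15. The causes were not tested.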

How the results depend on the processing

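No member was called for LG against MG at any stage or in the interaction under any of the alternatives run. The number at an unadjusted p under 0.05 did move. At slaughter it was 8 of 82 members tested (230 of 12577 identifiers) and 1 of 82 with limma voom without weights (196 of 12577). In 1 model over all libraries it was 15 of 90 (365 of 15264). With each slaughter library left out it was 2 to 8, where 215 (of 12465) to 377 (of 12504) identifiers had such a p. At birth the number moved from 4 (515 of 12485 identifiers) to between 1 without MG 17 (378 of 12474) and 7. The 7 came in 1 model over all libraries (550 of 15264) and with no low-count filter (1299 of 21145). In the fetus the number moved from 2 (102 of 14200) to between 1 and 16. The 1 came with 1 CPM required in every library of a group (77 of 11747). The 16 came with sample weights, of 61 members, where 2798 of all 14200 identifiers had such a p. In the interaction the number moved from 17 (468 of 15264) to between 2 and 17. The 2 came with limma voom without weights (165 of 15264). The rule found 64 of its 90 members from the MG libraries alone, 78 from the LG libraries alone, 67 with medians, and 77 with TMM scaling. Of these, 0, 15, 0 and 14 in turn were single-library members. With each slaughter library left out the rule found 74 to 90 of its 90 members, 74 without LG 14 and at least 82 without any other.

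The median log2 fold change of the members for slaughter against birth was 2.58, with 3.26 in the LG libraries alone and 2.54 in the MG libraries alone. Without the single-library members the median was 2.98 over the 75 others. It was 2.96 in LG alone and 2.69 in MG alone, over the 74 of them tested in each. Among these members the LG value was thus not above the value over all libraries. With the library number as a replicate block over the 6 shared numbers the median of the members was 2.696, and 3.03 in the same libraries without the replicate block. Over the 75 other members it was 2.79 with the block and 2.78 without it. For slaughter against the fetus the median of the members was 4.71, with 4.54 under the replicate block over 15 shared numbers and 4.74 without it. Deviations of libraries with 1 number correlated at -0.37 to 0.389 between slaughter and fetus, where 2 of 15 matched their own number best. Between slaughter and birth all 6 correlations were above 0, at 0.077 to 0.236, and 5 of 6 matched best, a hint from the data of a shared source. As the lowest was under 0.1 and no label states a pairing, the numbers were not used to pair libraries in the tests of the report. For the interaction, limma voom with the number as a replicate block over the birth and slaughter libraries, added after seeing the data, called 0 of 89 members with 3 at an unadjusted p under 0.05, as did the same fit without the block. Of all 13369 identifiers, 310 had such a p with the block and 283 without it. LG and MG libraries of 1 stage share no number. Depth limits the members near 0 CPM before slaughter, of which 29 failed the count filter in the fetus.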
